A study of Mus musculus with 2 samples.

Results

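Smad3, Smad6 and Tgfbr2 are 3 genes of the transforming growth factor beta (TGF-beta) pathway on mouse chromosome 9. Their 5-hydroxymethylcytosine (5hmC) peaks were followed here in mouse embryonic fibroblasts (MEFs) at passage 0 and at passage 5. Members were all peaks sharing at least 1 base with the mm9 windows 63489000 to 63611000 (Smad3), 63795000 to 63875000 (Smad6) and 115991000 to 116090000 (Tgfbr2). They numbered 54 of 60157 peaks at passage 0 and 10 of 6726 at passage 5. These were 1.68% and 2.82% of the 3216 and 355 peaks on chromosome 9.

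Each passage was represented by 1 library of genomic DNA enriched for 5hmC with the GLIB chemistry, which adds a glucose to the hydroxymethyl group and tags it with biotin. Both groups were C57BL/6 MEFs taken from embryos at 13.5 days and grown in high-glucose DMEM with 10% fetal calf serum. They differed in the passage at harvest, 0 or 5, and no genotype, agent or sex is named in the labels. Whether embryos were pooled is not given in the sources used here. Peak lists of genomic DNA hold no marker expression, so the fibroblast label could not be checked. The read depth is unknown. No replicate was at hand for either passage, so the intervals given are 95% exact ones that cover counting error only. In bulk DNA, fewer cells carrying the mark and less mark per cell cannot be told apart. A stretch without a peak has no called peak, which does not show that it lacks 5hmC.

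TGF-beta ligands bind the type II receptor encoded by Tgfbr2, a serine/threonine kinase that recruits and phosphorylates the type I receptor. The type I receptor then phosphorylates the receptor-regulated Smads, among them Smad3, which enters the nucleus with Smad4 and acts on target genes. Smad6 is an inhibitory Smad that restrains mainly the signals of bone morphogenetic proteins. In fibroblasts the pathway is known for extracellular matrix production and for the change to myofibroblasts. 5hmC is made from 5-methylcytosine by the TET enzymes, mostly at CpG sites, and is often found over the bodies of expressed genes.

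All 3 windows held more peaks per Mb at passage 0 than chromosome 9 as a whole, and the number called at passage 5 ran from 9 to 0. Smad3 had 26 peaks in its window at passage 0 against 9 at passage 5. Smad6 had 17 and 1, and Tgfbr2 had 11 and 0. Smad3 thus supplied 9 of the 10 passage 5 peaks. Smad3 and Smad6 had nearly the same density at passage 0, with 213 peaks per Mb (interval 139 to 312) and 212 (124 to 340). Tgfbr2 had 111 peaks per Mb (55.5 to 199), and chromosome 9 between its first and last peak had 26.6. Those densities were 8.0, 7.98 and 4.17 times the chromosome 9 value, and every lower limit, the smallest being 2.08 for Tgfbr2, lay above 1. These limits do not test whether the windows are peak-rich, because the members were chosen with earlier results of these data known. The same holds for the passage 5 densities and the tile shares given below. The limits also treat peaks as independent. Consecutive tiles of chromosome 9 as long as the Smad3 window held up to 26 passage 0 peaks. Their mean was 3.27, and 29.7% held none.

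**Figure D1:**
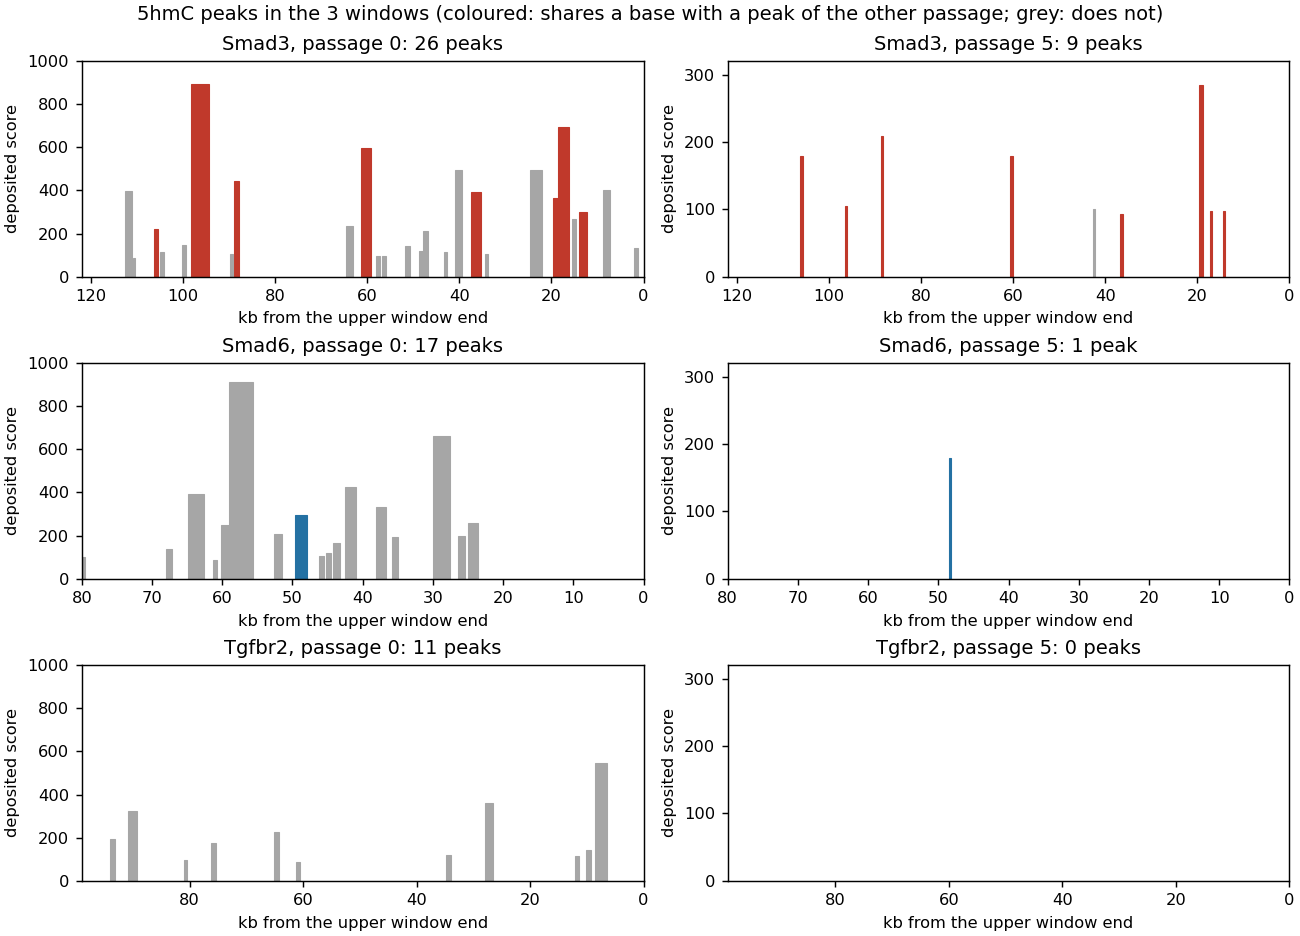
Peaks in the 3 windows at passage 0 (left) and passage 5 (right). The x axis is the distance in kb from the window's upper end, with coordinates rising to the right, the y axis is the deposited score (a scale of its own for each passage), bars have the width of the peak, and coloured bars share a base with a peak of the other passage while grey bars do not. Passage 0 peaks cover 28.5%, 28.2% and 12.0% of the Smad3, Smad6 and Tgfbr2 windows, and passage 5 has 9 peaks in Smad3, 1 in Smad6 and 0 in Tgfbr2.

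All 3 genes lie on the minus strand in the RefSeq table, so transcription runs toward lower coordinates. Where each gene starts within its mm9 window was not determined. The stretches before the starts are shown for their CpG sites, the kind of site at which 5hmC mostly forms. Whether these stretches carry 5hmC in MEFs was not tested. Each is the 250 bases before the start from RefSeq on GRCm38.p6, minus strand, written 5′ to 3′ with every CG in capitals. They lie at chr9:63757995-63758244 (Smad3), chr9:64022060-64022309 (Smad6) and chr9:116175364-116175613 (Tgfbr2) of that build. These positions cannot be set beside the mm9 peaks.
Smad3: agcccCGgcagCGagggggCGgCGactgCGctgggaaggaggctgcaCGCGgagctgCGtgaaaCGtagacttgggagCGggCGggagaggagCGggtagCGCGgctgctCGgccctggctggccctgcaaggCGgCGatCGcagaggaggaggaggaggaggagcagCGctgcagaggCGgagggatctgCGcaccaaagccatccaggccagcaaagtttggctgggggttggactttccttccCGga
Smad6: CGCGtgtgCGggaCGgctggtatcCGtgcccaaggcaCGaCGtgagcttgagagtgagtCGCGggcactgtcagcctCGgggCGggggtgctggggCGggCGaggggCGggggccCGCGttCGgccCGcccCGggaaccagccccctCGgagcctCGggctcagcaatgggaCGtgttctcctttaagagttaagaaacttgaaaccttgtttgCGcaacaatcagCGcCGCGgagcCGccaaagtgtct
Tgfbr2: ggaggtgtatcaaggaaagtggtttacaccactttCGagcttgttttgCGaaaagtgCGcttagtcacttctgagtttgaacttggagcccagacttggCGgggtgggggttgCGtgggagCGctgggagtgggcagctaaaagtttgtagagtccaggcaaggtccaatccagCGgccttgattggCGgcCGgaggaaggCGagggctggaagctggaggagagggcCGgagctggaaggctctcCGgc
The Smad6 stretch holds 27 CG pairs, that of Smad3 22 and that of Tgfbr2 12, against a median of 6 over 32851 RefSeq promoters. A stretch of the same length with at least as many occurs in 8.56%, 14.8% and 33.5% of those promoters. CG reads the same on both strands and was the only motif searched.

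Tgfbr2, the ligand-binding receptor, had the fewest peaks of the 3. Its 11 passage 0 peaks covered 11873 bases, or 12.0% of the window, against 2.46% of chromosome 9. Scores, the authors' own value for each peak, ran from 86.3 to 544 with a median of 177, and the chromosome 9 median was 126. Of the 11 peaks, 7 scored above that median and 3 were among the highest-scoring 10% of the chromosome. Among the 1219 consecutive tiles of chromosome 9 as long as the Tgfbr2 window, 53 held at least 11 passage 0 peaks, which is 4.35%.

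The leading Tgfbr2 peak was the one nearest the upper window end. It spanned bases 116081369 to 116083612, was the widest of the window with 2244 bp, and scored 544, above 98.8% of chromosome 9 peaks. Beyond it, the last 6.39 kb of the window had no peak. The next scores were 360 at bases 116062095 to 116063550 and 324 at 115999103 to 116000782, in the upper and lower parts of the window. Between bases 116029498 and 116055248 no peak was called over 25.8 kb, the longest such stretch in the window. Neighbouring Tgfbr2 peaks lay a median of 5.03 kb apart, against 10.1 kb on chromosome 9 and 1.81 kb in the Smad3 window.

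None of the 11 Tgfbr2 peaks had a passage 5 peak. A count of 0 of 11 allows a share of up to 27.3%, and over the whole of chromosome 9 the share was 7.21%. At the chromosome 9 density a window of this length would hold 0.291 passage 5 peaks, and 80.7% of the tiles held none. At the chromosome 9 ratio of passage 5 to passage 0 peaks, 11 passage 0 peaks would go with 1.21. The 0 at Tgfbr2 is therefore not distinguishable from the chromosome 9 level at this number of peaks. The nearest passage 5 peaks lay 53.1 kb above the window (bases 116143063 to 116143624, score 117) and 1014 kb below it.

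Smad3, the signal-transducing Smad, had the most peaks at both passages. At passage 0 its 26 peaks covered 34758 bases, 28.5% of the window and 11.6 times the covered share of chromosome 9. Widths ran from 512 to 3814 bp with a median of 1020, and the chromosome 9 median was 841 bp. Scores ran from 87.6 to 893 with a median of 227. Of the 26 peaks, 18 scored above the chromosome 9 median and 11 were in its highest-scoring 10%. Only 1 of 989 tiles as long as the window held at least 26 peaks, or 0.101%, and that tile, near 45.8 Mb, did not touch Smad3.

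The highest-scoring and widest Smad3 peak spanned bases 63512823 to 63516636, with a score of 893 and a width of 3814 bp, wider than 99.9% of chromosome 9 peaks. It was followed by the peaks at 63592475 to 63594918 (score 695) and 63549610 to 63551834 (598). All 3 had a passage 5 peak inside them. The highest-scoring Smad3 peak without one lay at 63570029 to 63571579. It scored 496, and 1.21 kb separated it from a passage 5 peak. Peaks stood in groups: 9 neighbouring pairs were at most 1 kb apart, whereas a stretch of 23.3 kb from base 63523149 to 63546437 held none at either passage. The lower, middle and upper parts of the window, each of equal length, held 8, 8 and 10 passage 0 peaks and 3, 2 and 4 passage 5 peaks.

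**Figure D2:**
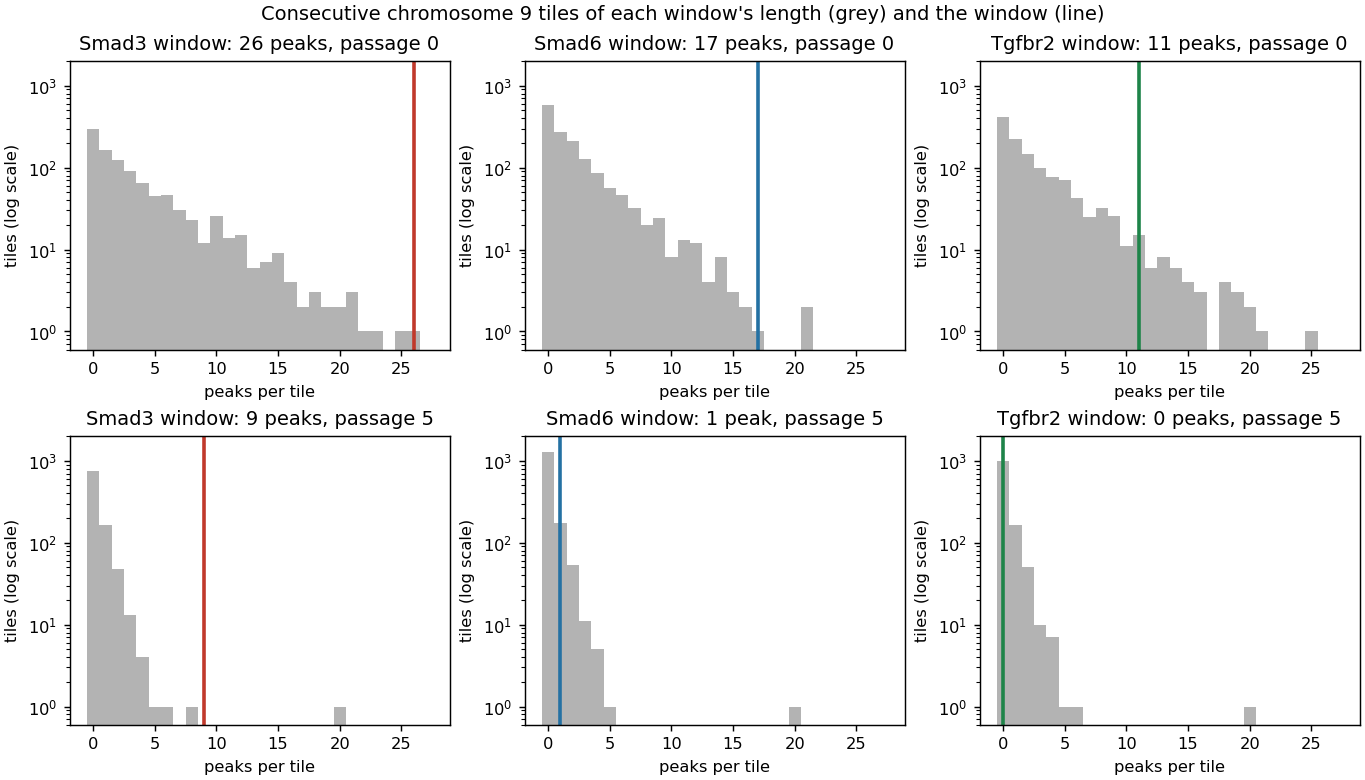
Number of peaks per consecutive tile of chromosome 9 (x axis) against the number of tiles (y axis, log scale), with tiles as long as each window, for passage 0 (top) and passage 5 (bottom). Vertical lines give the windows: the 26 peaks of Smad3 and 17 of Smad6 at passage 0 and the 9 of Smad3 at passage 5 were reached by 1, 3 and 1 tiles, the 11 of Tgfbr2 by 53 tiles, and 1 at Smad6 and 0 at Tgfbr2 lie among the common values of passage 5.

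At passage 5 the 9 Smad3 peaks amounted to 73.8 per Mb (33.7 to 140), against 2.94 on chromosome 9. The density was 25.1 times that of the chromosome (11.5 to 47.6). Of the 9 peaks, 4 scored above the passage 5 median of chromosome 9, which was 119, and 6 scored 100 or more. A window of this length would hold 0.359 passage 5 peaks at the chromosome density. Again 1 of 989 tiles, 0.101%, held at least as many. It was the first tile of chromosome 9, with 20 peaks. Of the other tiles that did not touch the Smad3 window, the highest held 6. The window was chosen with earlier results of these data known, so its density and tile share are descriptions and no test of rarity. The Smad3 window covered 5461 bases at passage 5, or 4.48%, against 0.170% on the chromosome. The ratio of passage 0 to passage 5 peaks was 2.89 (1.31 to 7.01) at Smad3 and 9.06 (8.12 to 10.1) on chromosome 9. These intervals did not overlap, but they cover counting error only, and Smad3 had the most passage 5 peaks of the 3 windows. The ratio is also not matched for score. Smad3 peaks scored high, and on chromosome 9 the share with a passage 5 peak rose with score, from 2.50% to 31.5%. A difference from the chromosome was not tested.

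The passage 5 peaks at Smad3 mostly sat within passage 0 peaks. Of the 9, 8 shared bases with a passage 0 peak, or 88.9% (51.8% to 99.7%), which contains the chromosome 9 share of 66.2%. Wholly inside a passage 0 peak lay 6, or 66.7% (29.9% to 92.5%), against 49.6% on chromosome 9, so neither share stood apart from the chromosome. Those 6 were 479 to 766 bp wide and their passage 0 partners 837 to 3814 bp. The best passage 5 score at Smad3 was 285, at bases 63591264 to 63592340, above 96.6% of chromosome 9 passage 5 peaks. It covered 90.8% of a passage 0 peak that scored 365 and ranked 10 among the 26. The next passage 5 scores were 209 at 63522277 to 63522785, 179 at 63504733 to 63505364 and 179 at 63550214 to 63550979.

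The order of scores in this window differed between the passages. The passage 5 peak inside the highest-scoring passage 0 peak, at 63514413 to 63514956, scored 105, above 35.2% of its chromosome 9 list, and covered 14.3% of its partner. Likewise the one inside the second-ranked passage 0 peak, at 63593719 to 63594197, scored 97.5. The remaining shared peaks lay at 63574304 to 63574837 (score 93.0) and at 63596619 to 63597097 (97.5), where 33.4% of the passage 5 peak was shared. The unshared one lay at 63568381 to 63568821 with a score of 101, and only 56 bases separated it from a passage 0 peak that scored 115. Scores were ranked within each list only, because their scale may differ between the libraries.

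Smad6, the inhibitory Smad, had nearly the same peak density and covered share as Smad3 at passage 0, and 1 peak at passage 5. Its 17 passage 0 peaks covered 22579 bases, 28.2% of the window, with a median width of 1096 bp and a median score of 208. Of these, 13 scored above the chromosome 9 median and 6 were in its highest-scoring 10%. At least 17 peaks were found in 3 of 1509 tiles of this length, or 0.199%. The highest-scoring and widest peak spanned bases 63816022 to 63819381, with 3360 bp and a score of 911, the highest of all 54. The next were at 63844989 to 63847440 (score 664) and 63832475 to 63834095 (426).

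None of those 3 Smad6 peaks had a passage 5 peak, and the score of 911 was also the highest of any member without one. The single passage 5 peak, 348 bp at bases 63826496 to 63826843 (score 179.5), lay wholly inside a passage 0 peak that scored 297 and ranked 6 among the 17. At least 1 passage 5 peak was found in 16.2% of the tiles of this length. The density at passage 5 was 4.25 times that of chromosome 9, with an interval of 0.108 to 23.7 that contains 1. The ratio of 17 to 1 peaks had an interval of 2.66 to 711, which contains the chromosome 9 ratio and overlaps that of Smad3. A difference between Smad3 and Smad6 in retained peaks was therefore not resolved by these counts.

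The Smad6 peaks stopped short of the upper window end. From base 63851383 to 63875000, over 23.6 kb, no peak was called at either passage. The lower, middle and upper parts of the window held 6, 9 and 2 passage 0 peaks. In the Smad3 window the uppermost passage 0 peak ended 1.11 kb from the window end and in the Tgfbr2 window 6.39 kb from it. The nearest passage 5 peak above the Smad6 window was 17.5 kb away, at 63892543 to 63893276 (score 104).

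Smad3 and Smad6 are neighbours, with 5 RefSeq entries between them on GRCm38.p6, none of them protein-coding. In mm9 the 184 kb between the windows held 18 further passage 0 peaks, of which the highest scored 379, and 1 peak that reached into the Smad6 window. No passage 5 peak was called there. From the lower end of the Smad3 window to the upper end of the Smad6 window there were 61 peaks at passage 0 over 386 kb, or 158 per Mb (121 to 203). The density between the windows was 3.88 times that of chromosome 9 (2.33 to 6.05), below the 8.0 and 7.98 of the windows, and its upper limit overlapped their lower limits of 5.23 and 4.65. The 100 kb below the Smad3 window held 7 passage 0 peaks and 0 passage 5 peaks. The 100 kb above the Smad6 window held 14 and 3.

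Peak numbers on either side of the Tgfbr2 window were uneven. The 100 kb below the window held 4 passage 0 peaks, and the 100 kb above it held 17, more than the 11 of the window itself. The intervals per Mb were 10.9 to 102 below, 55.5 to 199 within and 99.0 to 272 above, and each overlapped the others. The stretch above the window also held 1 passage 5 peak, the nearest to Tgfbr2. On GRCm38.p6 the next protein-coding genes in the RefSeq order are Gadl1 and Rbms3.

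**Figure D3:**
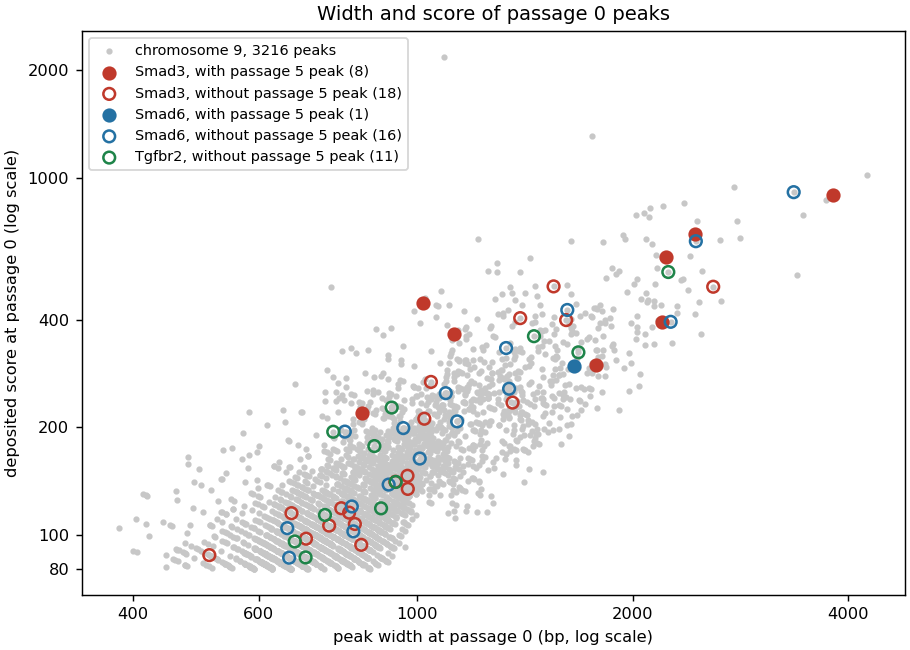
Width (x axis, bp, log scale) and deposited score (y axis, log scale) of the passage 0 peaks of chromosome 9 (grey, 3216 peaks) and of the 54 members, filled where a passage 5 peak shares a base. The members reach the upper right of the cloud, with 911 and 893 the highest scores in the Smad6 and Smad3 windows, and 8 of the 9 filled points belong to Smad3.

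Over the 3 windows, members with a passage 5 peak had higher scores and were wider than the others. The 9 passage 0 members with a passage 5 peak had a median score of 394 and a median width of 1779 bp, and the 45 others had 177 and 933 bp. On chromosome 9 the same medians were 210 and 980 bp against 122 and 830 bp. Of the 26 members that scored under 200, none had a passage 5 peak, and few chromosome 9 peaks did, with 2.50% under 100 and 5.34% from 100 to 200. Between 200 and 400, 5 of 17 had one, and from 400 upward 4 of 11, while chromosome 9 had 15.6% and 31.5% in these classes. All of these peaks but the 1 at Smad6 were in Smad3.

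Because the members scored high, their passage 5 partners were set beside those of chromosome 9 peaks in the same score class, with class borders of 100, 200 and 400 chosen after the values were seen. At the chromosome 9 shares, the 26 Smad3 peaks would have 3.96 with a partner, and 8 were found, or 30.8% (14.3% to 51.8%). For Smad6 the numbers were 2.28 and 1, or 5.88% (0.149% to 28.7%), and for Tgfbr2 1.10 and 0. In the class from 200 to 400, 4 of 8 Smad3 peaks had a partner (15.7% to 84.3%), and from 400 upward 4 of 7 (18.4% to 90.1%). Both intervals overlapped those of chromosome 9, 12.7% to 18.9% and 23.0% to 41.0%. From 200 to 400 the chromosome 9 share of 15.6% lay just below the Smad3 lower limit. From 400 upward the chromosome 9 share of 31.5% lay within the Smad3 interval. Overlap does not show equal shares, and a difference was not tested. The chromosome 9 values include the members. Width was not matched: Smad3 peaks with a partner had a median width of 1988 bp, against 980 bp on chromosome 9. The 8 at Smad3 also follow from the passage 5 peaks already counted in that window, so they are no separate support for retention.

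**Figure D4:**
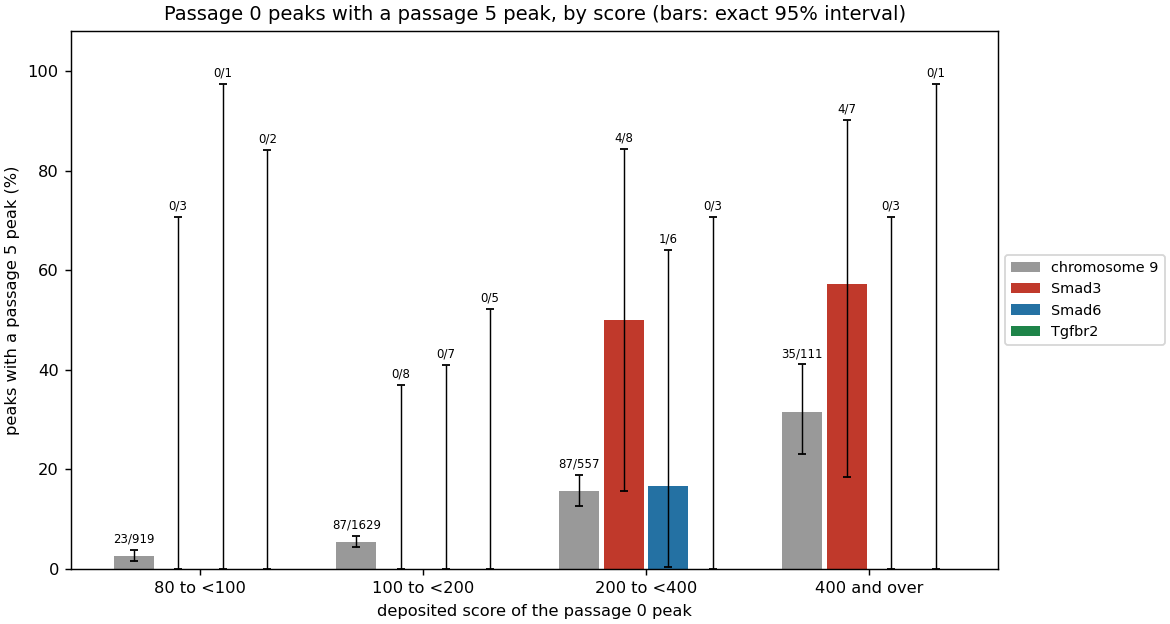
Percentage of passage 0 peaks that share a base with one of passage 5 (y axis, %) by deposited score of the passage 0 peak (x axis), for chromosome 9 and the 3 windows, with exact 95% intervals and the counts above them. The chromosome 9 share rises from 2.50% to 31.5% across the classes. Smad3 reaches 4 of 8 and 4 of 7 in the upper classes, with intervals that overlap those of chromosome 9. From 200 to 400 the Smad3 lower limit of 15.7% lies just above the chromosome 9 share of 15.6%.

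In the 3 windows together, 54 passage 0 and 10 passage 5 peaks gave a ratio of 5.40 (2.72 to 11.9), which overlaps the chromosome 9 interval. The covered bases fell from 69210 to 5809, a ratio of 11.9 against 14.5 on the chromosome. Density was 6.74 times that of chromosome 9 at passage 0 (5.06 to 8.79) and 11.3 times at passage 5 (5.42 to 20.8). The passage 5 value rests on Smad3: without that window it was 1.90 (0.0481 to 10.6), with 1 passage 5 peak left. The ratio of peak numbers was then 28 (4.63 to 1145), an interval that contains the chromosome 9 ratio of 9.06. Of the 54 passage 0 members 16.7% had a passage 5 peak (7.92% to 29.3%), and without Smad3 3.57% (0.0904% to 18.35%). The chromosome 9 share of 7.21% lay just below the lower limit of the 54 members and within the interval without Smad3. Its own interval of 6.34% to 8.16% overlapped that of the 54 members. A difference was not tested, and the members were chosen with earlier results of these data known. Of the 10 passage 5 members 9 shared a base with a passage 0 peak, or 90.0% (55.5% to 99.8%), an interval that contains the 66.2% of chromosome 9.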

How the data were processed

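5hmC-enriched genomic DNA of MEFs was sequenced at passage 0 and passage 5, 1 library each. CASAVA 1.8, Bowtie 0.12.7, MACS 1.4.1 and the build mm9 appear in the submitters' processing notes, with no step assigned to any. How duplicates, an input control and the peak threshold were handled is not given in the sources used here. Per library, the authors deposited a list of peaks with chromosome, start, end, name and an unnamed score, whose lowest values are 80.0 and 81.5. The deposited score was used only within a list. Starts were converted to count from 1.

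Peaks sharing at least 1 base with a window, or with a peak of the other passage, were counted. Chromosome 9 was taken from its first to its last peak, and cut into consecutive tiles of each window's length. Shares and ratios of peak numbers carry exact binomial (Clopper-Pearson) intervals, and densities exact Poisson ones. A count of 0 is given a limit of 3 counts. Depth is unknown, and no test between passages was possible.

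Named peaks are every passage 5 member and, per window, the 3 highest-scoring, the widest and the highest-scoring unshared passage 0 peak. The members and lists were chosen with earlier results of these data known. A list of 18 further pathway genes was not placed, since the gene table is GRCm38.p6. It gave gene order and strand only, and all 3 genes matched a promoter entry. Alternatives kept scores of 100 or more, or the upper 50% by score, or used merging within 1 kb, midpoints, shorter or longer windows, other comparison regions and other overlap rules. Overlap counts equalled those of bedtools 2.31.1 and known shares in simulated lists. Python 3.11.15, numpy 2.4.6, pandas 2.3.3, scipy 1.17.1 and matplotlib 3.10.9 were used.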

Additional observations from a re-analysis of the deposited data

How the results depend on the processing

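Of 50 recomputed values for the 6 results on the 3 windows, 42 stayed within the interval of the reported value and 8 moved beyond it. Covered bases have no counting interval, so for their ratio the interval of the peak number ratio was scaled and used. The intervals are wide at 10 passage 5 peaks, so staying within them is weak evidence of stability. Among the 50% of peaks with the highest scores, the passage 0 density was 9.86 times that of chromosome 9. Only 4 passage 5 members were left there at Smad3 and 1 at Smad6, and 100% (47.8% to 100%) shared a base with passage 0. This percentage was also 100% within 500 bases, by construction, since the unshared peak lay 56 bases from its neighbour. Leaving out Smad3, an alternative chosen after the data were seen, gave a ratio of peak numbers of 28, a ratio of covered bases of 99, a passage 5 density of 1.90 times that of chromosome 9, and shares of 3.57% and 100%, with 1 passage 5 peak left. Merging peaks within 1 kb left 17 passage 0 peaks at Smad3 and 10 at Smad6. The upper 50% by score left 4 passage 5 peaks at Smad3 and 7 passage 0 peaks at Tgfbr2. Windows longer by 20 kb gave Smad6 2 passage 5 peaks. Unknown depth limits every comparison between passages; no replicate could be left out. No paired analysis was possible because each passage had 1 library.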
